A study of Mus musculus with 20 samples.

Results

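The genes of apolipoproteins and of lipoprotein assembly were followed across mouse liver tumors and control livers in 20 RNA-seq libraries. They are 10 of the 50559 genes in the count tables, selected by symbol: Apob and Mttp, which build the lipoprotein particle, and Apoa1, Apoa2, Apoa4, Apoa5, Apoc1, Apoc3, Apoe and Apom, whose proteins sit on its surface. Each of the 10 was above the filter on low counts and was tested among 14333 genes. Tumors were raised in young female C57BL/6J mice by hydrodynamic gene transfer, in which naked plasmids are injected with a large volume into the tail vein so that hepatocytes take them up, and the Sleeping Beauty transposase inserts the transgenes into the genome. All 3 tumor groups received MYC, the human oncogene under the EF1a promoter. It was combined with human FGF19, a gut hormone that represses bile acid synthesis in the liver (FGF19+MYC tumors), with Aldafermin, an engineered analog of FGF19 (Aldafermin+MYC tumors), or with a CRISPR plasmid against Trp53 (sgTrp53+MYC tumors). The first and second of these are called FGF tumors below. Livers served as controls. Per the labels they were non treated, whereas the study's methods describe a control plasmid encoding RFP. Each group had 5 libraries, each from a tumor or liver of a separate mouse, and the genotype given for all samples is wild type.

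Hepatocytes make most of the plasma apolipoproteins. Apolipoprotein B is threaded into the endoplasmic reticulum while it is made, and the microsomal triglyceride transfer protein (encoded by Mttp) loads it with lipid to give very low density lipoprotein. Apolipoprotein A-I, helped by A-II and M, forms high density lipoprotein, and the exchangeable C, E and A-V proteins move between particles and set how fast lipoprotein lipase and the liver clear them.

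Depth was 18004977 to 66354724 counts on genes in a library, and the sgTrp53+MYC libraries were the deepest, from 54042455 reads upward. These 5 libraries were deposited in a table of their own, and 12.9% ± 1.56 (SD, n = 5) of their reads fell on more than 1 gene, against means of 4.48% to 4.81% in the other groups. Differences from the other groups and differences between the tables cannot be told apart. Trp53, the targeted gene, had 18.7, 79.8, 35.3, 50.9 and 48.7 counts per 1000000 counts on genes (CPM) in the sgTrp53+MYC tumors, below every FGF tumor (90.7 to 176 CPM) and in the range of the livers or above (28.8 to 36.3 CPM) in all but replicate 1. Hepatocyte markers, a list of 11 genes headed by albumin, were all lower in each tumor group, with sums of 204227 to 254803 CPM in livers and 5947 to 32280 CPM in tumors. Aldafermin+MYC replicate 4 (25360 CPM), FGF19+MYC replicate 5 (32280 CPM) and sgTrp53+MYC replicate 1 (15821 CPM) held the highest sum of their groups. The 5 fetal liver and tumor markers, Afp among them, were all higher in each tumor group than in livers, with sums of 14809 CPM or more in every tumor and at most 58.7 CPM in every liver. In whole tissue, fewer cells of a type and less RNA per cell cannot be told apart. CPM here are scaled by the TMM method, which centers the bulk of the genes. On library totals alone the median change of all genes from liver to tumor would be higher by 0.85 (Aldafermin+MYC), 0.84 (FGF19+MYC) and 0.88 (sgTrp53+MYC) on the log2 scale, and changes are therefore relative to that centering.

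In livers the 10 genes took 4.57% ± 0.583 (SD, n = 5) of all counts on genes. Their share was 1.34% ± 0.294 for Aldafermin+MYC, 1.46% ± 0.432 for FGF19+MYC and 0.907% ± 0.341 for sgTrp53+MYC tumors (SD, n = 5 each). Against livers, 8 of the 10 were lower in Aldafermin+MYC, 8 in FGF19+MYC and 9 in sgTrp53+MYC tumors (edgeR quasi-likelihood test, adjusted p under 0.05), and none was higher. Of all genes tested, 31.9%, 32.9% and 33% were lower in the same comparisons, and 38.4%, 36.9% and 36.9% were higher. In TMM-scaled CPM all 5 tumors lay below all 5 livers for 8, 7 and 8 of the 10 genes, beside 27.5%, 30.1% and 27.4% of all genes tested. These counts were not repeated on library totals, where FGF19+MYC replicate 5 lay within the range of the livers for Apoa1. The median log2 fold change of the 10 was -2.48, -2.45 and -3.40, beside 0.13, 0.062 and 0.071 over all genes tested. The fall was as large as 39.7-fold (Apoa5 in sgTrp53+MYC tumors; 80.2-fold without replicate 1 of that group), whereas Apoa4 passed the test in no comparison. On library totals in place of TMM, the count was 7 lower in each tumor group, with 1 higher in FGF19+MYC and 1 in sgTrp53+MYC tumors, and of all genes called the share that was higher moved from 54.6%, 52.9% and 52.8% to 78.2%, 77.3% and 77.9%. The 3 comparisons share their livers, so that they are not independent of each other.

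**Figure D1:**
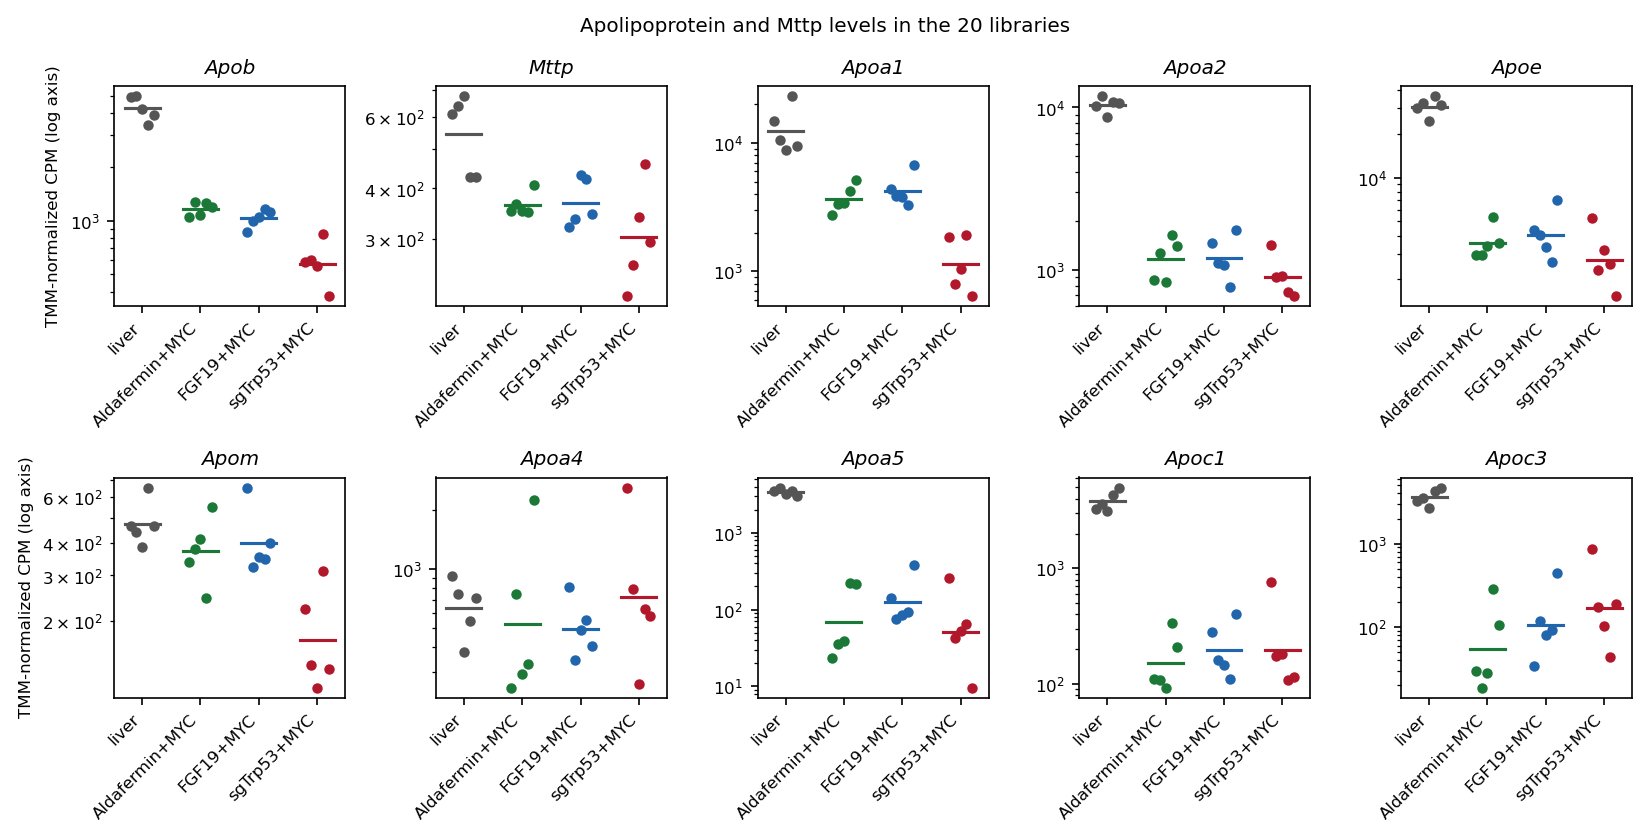
Level of each gene in each of the 20 libraries, in TMM-normalized CPM on a logarithmic axis, by group. Each point is a library, in replicate order from left to right, and each line is the geometric mean of the group. On this scale livers lie above every tumor for Apob, Apoa1, Apoa2, Apoe, Apoa5, Apoc1 and Apoc3, whereas the groups overlap for Apoa4.

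Apob, the structural protein of very low density lipoprotein, had 4907, 4971, 4216, 3409 and 3899 CPM in the 5 livers. It had 1050, 1267, 1074, 1256 and 1188 CPM in the Aldafermin+MYC tumors and 858, 993, 1041, 1163 and 1120 CPM in the FGF19+MYC tumors. In the sgTrp53+MYC tumors it had 588, 603, 559, 838 and 379 CPM. The livers were above every tumor, and in TMM-scaled CPM every FGF tumor was above every sgTrp53+MYC tumor. On library totals these tumors overlapped: sgTrp53+MYC replicate 4 (988 CPM) lay above FGF19+MYC replicate 1 (855 CPM). Against livers the log2 fold change was -1.87 (SE 0.18, adjusted p = 2.83e-08) in Aldafermin+MYC, -2.05 (SE 0.18, adjusted p = 8.67e-09) in FGF19+MYC and -2.85 (SE 0.19, adjusted p = 1.20e-10) in sgTrp53+MYC tumors (edgeR). Within either FGF tumor group it varied by at most 1.36-fold between libraries. It was 1.85-fold higher in the FGF tumors than in sgTrp53+MYC tumors (log2 fold change 0.89, SE 0.16, adjusted p = 0.000676, edgeR).

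Mttp, which lipidates apolipoprotein B, moved far less. Its level was 612, 641, 677, 427 and 426 CPM in livers, 351 to 407 CPM with Aldafermin+MYC, 321 to 432 CPM with FGF19+MYC and 217 to 459 CPM with sgTrp53+MYC. Replicates 4 and 5 of the livers were the lowest of their group, and the highest FGF19+MYC and sgTrp53+MYC tumors reached above them. The log2 fold change against livers was -0.61 (SE 0.19, adjusted p = 0.00739), -0.58 (SE 0.19, adjusted p = 0.00949) and -0.83 (SE 0.19, adjusted p = 0.000662) in the order above (edgeR). These 3 calls depend on the scaling: on library totals the values were 0.23, 0.26 and 0.064, and none passed the test. Within a library, where no scaling enters, the ratio of Apob to Mttp reads was 7826 ± 1048 per 1000 in livers, 3198 ± 298 in Aldafermin+MYC, 2806 ± 310 in FGF19+MYC and 1959 ± 567 in sgTrp53+MYC tumors (SD, n = 5 each). The lowest liver had 6228 Apob reads per 1000 Mttp reads and the highest tumor 3580, so that livers and tumors did not overlap.

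**Figure D2:**
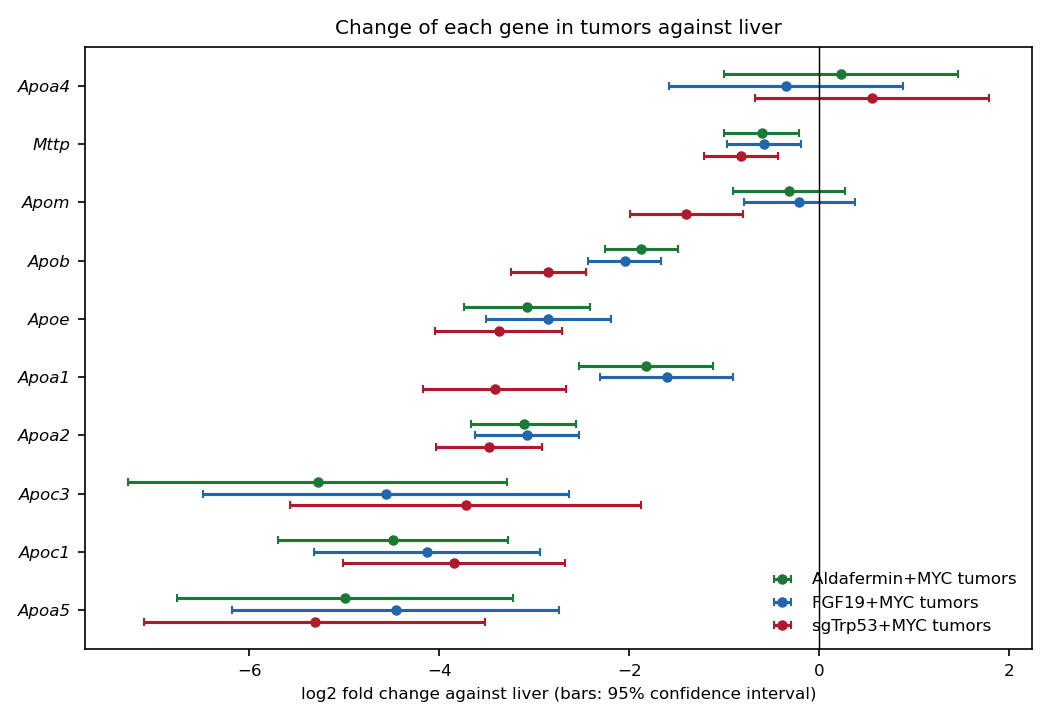
Log2 fold change of each gene in the 3 tumor groups against livers from the edgeR model, with 95% confidence intervals as bars and genes ordered by the change in sgTrp53+MYC tumors. The intervals of Apoa4 span 0 in all 3 groups, as do those of Apom in the FGF tumors, and those of Apoa5 and Apoc3 are the widest.

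Apoa1, the main protein of high density lipoprotein, had 14811, 10566, 8759, 23261 and 9442 CPM in livers. It had 2737, 3369, 3390, 4216 and 5155 CPM in Aldafermin+MYC tumors and 4371, 3838, 3805, 3258 and 6689 CPM in FGF19+MYC tumors. In sgTrp53+MYC tumors it had 1857, 794, 1047, 1916 and 641 CPM. In TMM-scaled CPM no tumor reached the lowest liver, and no sgTrp53+MYC tumor reached the lowest FGF tumor, although the livers themselves spread 2.66-fold. Its log2 fold change against livers was -1.82 (SE 0.34, adjusted p = 8.51e-05), -1.61 (SE 0.33, adjusted p = 0.000298) and -3.42 (SE 0.36, adjusted p = 7.52e-08) in Aldafermin+MYC, FGF19+MYC and sgTrp53+MYC tumors (edgeR). On library totals FGF19+MYC replicate 5 (7845 CPM) lay above liver replicates 2, 3 and 5 (6498, 5973 and 5983 CPM). The FGF19+MYC value on library totals was -0.76 (adjusted p = 0.0311, edgeR).

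Apoa2, the second protein of high density lipoprotein, was at 10255, 11768, 8725, 10778 and 10637 CPM in livers and at 691 to 1759 CPM over the 15 tumors. Apoe, the ligand through which remnants are taken up by the liver, was at 30033, 32304, 24258, 36292 and 31309 CPM in livers and at 1539 to 6996 CPM over the 15 tumors. For both genes the lowest liver was far above the highest tumor. Apoa2 was lower in tumors by 8.65-fold (Aldafermin+MYC), 8.45-fold (FGF19+MYC) and 11.2-fold (sgTrp53+MYC), with SE of 0.26 to 0.27 on the log2 scale and an adjusted p of at most 4.02e-09 (edgeR). Apoe was lower by 8.46-fold, 7.23-fold and 10.4-fold in the same order, with SE of 0.31 to 0.32 and an adjusted p of at most 1.50e-07 (edgeR). Their profiles over the 20 libraries, each centered on its own mean, were the closest of any pair of the 10 genes, with a root mean square difference of 0.24 on the log2 CPM scale.

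Apom, which carries sphingosine 1-phosphate on high density lipoprotein, was at 385 to 649 CPM in livers, at 245 to 552 CPM in the Aldafermin+MYC and at 323 to 655 CPM in the FGF19+MYC tumors, which overlap. In sgTrp53+MYC tumors it was at 222, 136, 111, 312 and 131 CPM, below every liver. The log2 fold change against livers was -0.32 (95% confidence interval -0.90 to 0.27, adjusted p = 0.316) and -0.21 (-0.80 to 0.37, adjusted p = 0.512) in the FGF tumors and -1.40 (SE 0.28, adjusted p = 0.000225) in sgTrp53+MYC tumors (edgeR). On library totals it was higher in FGF19+MYC tumors (log2 fold change 0.61, adjusted p = 0.0299), and the fall in sgTrp53+MYC tumors no longer passed the test (log2 fold change -0.53, adjusted p = 0.0530, edgeR). With offsets for GC content and exon length it was lower in both FGF tumors, at -0.83 (adjusted p = 0.00418) and -0.60 (adjusted p = 0.0287, edgeR).

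Apoc3, an inhibitor of lipoprotein lipase, had 3223, 3483, 2656, 4218 and 4710 CPM in livers. The Aldafermin+MYC tumors had 29.6, 18.9, 28.3, 288 and 107 CPM and the FGF19+MYC tumors 34.2, 119, 81.2, 92.1 and 447 CPM. In sgTrp53+MYC tumors it had 874, 173, 103, 44.1 and 191 CPM. Every tumor was below every liver, and within each tumor group the highest level was in the library with the highest hepatocyte marker sum. Against livers its log2 fold change was -5.28 (SE 0.95, adjusted p = 6.63e-05), -4.56 (SE 0.92, adjusted p = 0.000215) and -3.72 (SE 0.88, adjusted p = 0.000971, edgeR). Without those 3 libraries it was -6.31, -5.49 and -4.84, with an adjusted p of at most 1.52e-06. Without Aldafermin+MYC replicate 4 alone the first value was -6.32.

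Apoa5, which activates lipoprotein lipase, had 3477, 3884, 3201, 3515 and 3004 CPM in livers. It had 23.0, 35.4, 38.6, 223 and 217 CPM in the Aldafermin+MYC group, 143, 76.1, 83.9, 92.9 and 380 CPM in FGF19+MYC tumors and 260, 43.0, 52.6, 64.8 and 9.64 CPM in sgTrp53+MYC tumors. The tumors spread widely, up to 27.0-fold among the sgTrp53+MYC libraries, yet the highest tumor was below the lowest liver. The log2 fold change against livers was -4.99, -4.46 and -5.31, with SE of 0.82 to 0.86 and an adjusted p of at most 8.67e-05 (edgeR). Without sgTrp53+MYC replicate 1 the last was -6.33, and without FGF19+MYC replicate 5 the second was -5.11. Apoc1, a small exchangeable protein that activates lecithin cholesterol acyltransferase, had 3148 to 4996 CPM in livers and 93.5 to 762 CPM in tumors, again without overlap. It was lower by 22.5-fold, 17.5-fold and 14.4-fold, with SE of 0.56 to 0.58 and an adjusted p of at most 5.55e-06 (edgeR). Without sgTrp53+MYC replicate 1 the last was 26.5-fold (log2 fold change -4.73), and without the library highest in hepatocyte markers of each tumor group the log2 fold changes of Apoc1 were -4.88, -4.46 and -4.73. As for Apoc3, the libraries with the highest hepatocyte marker sum of each group had its highest tumor levels (338, 405 and 762 CPM). The part of residual hepatocytes in these levels was not tested.

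Apoa4, an apolipoprotein of intestine and liver that responds to fasting and fat, had 929, 750, 378, 546 and 718 CPM in livers. It had 249, 752, 291, 328 and 2268 CPM in Aldafermin+MYC tumors and 815, 345, 487, 552 and 404 CPM in FGF19+MYC tumors. In sgTrp53+MYC tumors it had 2614, 797, 260, 628 and 579 CPM. The groups overlapped, and a single library stood far above the others in Aldafermin+MYC (replicate 5) and in sgTrp53+MYC tumors (replicate 1). The log2 fold change against livers was 0.23 (SE 0.59), -0.35 (SE 0.59) and 0.55 (SE 0.59), with an adjusted p of 0.741, 0.608 and 0.412 (edgeR). Without those libraries Apoa4 was at -0.65 in Aldafermin+MYC (adjusted p = 0.269) and -0.23 in sgTrp53+MYC tumors (adjusted p = 0.718, edgeR), each with the opposite sign. On library totals the sgTrp53+MYC value was 1.36 with an adjusted p of 0.0303.

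Apoa1, Apoc3, Apoa4 and Apoa5 lie side by side on chromosome 9, as annotated by GENCODE M39 on GRCm39. Apoa1 spans 46139878 to 46142212 on the forward strand, Apoc3 starts 314 bases further on the reverse strand (46142527 to 46146934), Apoa4 follows at 46151994 to 46154757 and Apoa5 at 46179931 to 46183217, both forward. Ratios of neighbors within a library do not depend on the scaling. Livers had 23.5 to 76.0 Apoa4 reads per 1000 Apoa1 reads, Aldafermin+MYC libraries 77.8 to 440, FGF19+MYC libraries 60.4 to 186 and sgTrp53+MYC tumors 249 to 1408. All sgTrp53+MYC and all Aldafermin+MYC libraries were above all livers, while FGF19+MYC replicate 5 lay within the liver range. In the same libraries, Apoc3 went from 181 to 499 reads per 1000 Apoa1 reads in livers to 5.62 to 68.3 in Aldafermin+MYC and 7.82 to 66.9 in FGF19+MYC tumors, without overlap. In sgTrp53+MYC tumors the Apoc3 ratio was 471, 218, 98.7, 23.0 and 298, which overlaps with the livers. Apoa5 had 151 to 368 reads per 1000 Apoa1 reads in livers and 8.42 to 140 over all tumors. In every FGF tumor, then, Apoc3 and Apoa5 were lower relative to Apoa1 than in any liver, whereas Apoa4 was as high as in the livers or higher.

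Apoc1 and Apoe lie on the reverse strand of chromosome 7, at 19422540 to 19427328 and 19430034 to 19434947. Apoc1 had 108 to 160 reads per 1000 Apoe reads in livers, 27.5 to 63.3 in Aldafermin+MYC and 40.4 to 64.4 in FGF19+MYC tumors, without overlap. In sgTrp53+MYC tumors replicate 1 reached 145, inside the liver range, and the other 4 had 42.6 to 75.2. Apoc4 and Apoc2, outside the 10, are their neighbors. The log2 fold change of Apoc4 against livers was -2.69, -2.29 and -2.55. Unlike Apoc1, it overlapped with the livers relative to Apoe. Apoc4 had 15.8 to 25.1 reads per 1000 Apoe reads in livers and 16.6 to 49.6 in Aldafermin+MYC tumors. The range was 17.8 to 60.9 in FGF19+MYC and 12.6 to 56.3 in sgTrp53+MYC tumors.

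**Figure D3:**
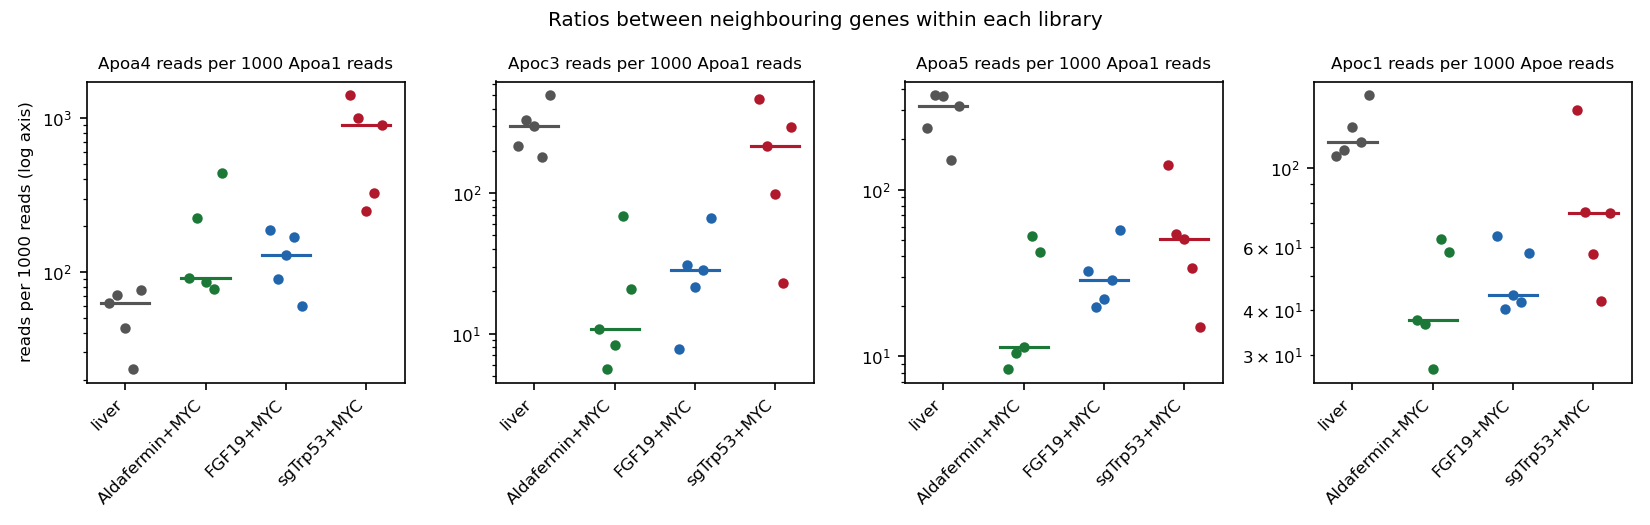
Reads of 1 gene per 1000 reads of its neighbor within each library, on logarithmic axes, by group. Points are libraries in replicate order and lines are group medians. Apoa4 per Apoa1 is higher in sgTrp53+MYC tumors (249 to 1408) than in livers (23.5 to 76.0), whereas Apoa5 per Apoa1 is lower in every tumor than in every liver.

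Since the chromosome 9 neighbors changed so unequally, the promoters of Apoa1, Apoa4 and Apoa5 are given first. Those of Apoa2, which fell about as much as Apoe, and of Mttp follow. With TMM scaling Mttp changed least among the genes called lower in every tumor group, and on library totals it was not called. Windows run from 250 bases before to 50 bases after the start site, were taken from RefSeq and were placed on GRCm39 by exact match. They are written 5′ to 3′ along the gene's strand, with matches to 4 motifs in capitals: CACGTG (the E-box that MYC can bind), AAGTCCA (a core of HNF4 sites), AGGTCA (a nuclear receptor half-site) and TATAAA, each searched on both strands.
Apoa1, chr9:46139678-46139977, strand +: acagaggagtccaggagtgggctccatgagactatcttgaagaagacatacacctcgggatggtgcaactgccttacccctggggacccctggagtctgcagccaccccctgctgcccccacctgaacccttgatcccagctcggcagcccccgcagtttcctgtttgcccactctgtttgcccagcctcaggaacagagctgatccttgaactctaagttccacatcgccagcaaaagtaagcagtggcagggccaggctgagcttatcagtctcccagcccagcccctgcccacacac
Apoa4, chr9:46151892-46152191, strand +: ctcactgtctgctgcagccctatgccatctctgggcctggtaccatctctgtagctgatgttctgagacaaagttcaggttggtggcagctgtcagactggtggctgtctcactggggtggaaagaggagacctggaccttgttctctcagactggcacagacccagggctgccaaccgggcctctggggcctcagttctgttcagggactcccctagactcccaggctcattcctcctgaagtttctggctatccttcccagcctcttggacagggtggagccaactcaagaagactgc
Apoa5, chr9:46179656-46179955, strand +: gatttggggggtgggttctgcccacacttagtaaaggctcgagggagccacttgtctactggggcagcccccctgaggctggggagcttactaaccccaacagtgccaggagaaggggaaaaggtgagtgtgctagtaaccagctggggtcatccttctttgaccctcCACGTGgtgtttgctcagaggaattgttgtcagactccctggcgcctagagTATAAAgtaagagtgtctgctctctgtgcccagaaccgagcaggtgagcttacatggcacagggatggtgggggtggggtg
Apoa2, chr1:171052373-171052672, strand +: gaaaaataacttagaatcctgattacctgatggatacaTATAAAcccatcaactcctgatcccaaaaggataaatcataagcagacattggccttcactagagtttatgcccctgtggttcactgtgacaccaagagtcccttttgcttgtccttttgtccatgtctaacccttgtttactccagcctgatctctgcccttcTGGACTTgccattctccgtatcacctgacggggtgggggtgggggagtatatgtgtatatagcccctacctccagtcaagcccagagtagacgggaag
Mttp, chr3:137849130-137849429, strand -: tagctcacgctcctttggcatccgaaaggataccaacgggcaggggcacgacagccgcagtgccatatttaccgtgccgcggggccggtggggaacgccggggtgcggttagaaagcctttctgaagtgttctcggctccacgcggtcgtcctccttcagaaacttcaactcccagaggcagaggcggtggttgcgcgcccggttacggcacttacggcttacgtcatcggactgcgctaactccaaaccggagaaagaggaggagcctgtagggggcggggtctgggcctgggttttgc
Of 32851 promoters of this length, 7.15% hold CACGTG, 4.17% AAGTCCA, 16.3% AGGTCA and 13.6% TATAAA. The Apoa5 window holds CACGTG at -82 and TATAAA at -31 from the start site, and the Apoa2 window holds AAGTCCA at -48 on the reverse strand and TATAAA at -212. The windows of Apoa1, Apoa4 and Mttp hold none of the 4. Of the 10 genes, 8 had windows, 12 in all because some genes have several start sites. Apoc1 and Apoc3, the latter a neighbor on chromosome 9, had none. From the other start site of Apoa5 the same matches lie at -107 (CACGTG) and -56 (TATAAA). Among those not printed, another start site of Apoa2 holds AAGTCCA and AGGTCA, Apob holds TATAAA at -60 and 1 of 3 Apoe windows holds overlapping TATAAA matches on both strands. Apom holds none. A match of letters is not a binding site.

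Levels of different genes can be compared only per length. Reads were counted per gene, untranslated parts included, while the length used here is the coding sequence only. The ranks and shares below hold for that length. Per kilobase of coding sequence, the livers ranked Apoa2 (34094 ± 3614 CPM per kb), Apoe (33054 ± 4674), Apoa1 (16879 ± 7588), Apoc1 (14628 ± 2952), Apoc3 (8468 ± 1882) and Apoa5 (3094 ± 303) above Apom, Apoa4, Apob and Mttp, which lay between 208 and 844 (SD, n = 5). Neighbors in this order overlapped between libraries except for Apoc1 and Apoc3, Apoc3 and Apoa5, and Apoa5 and Apom. In both FGF tumors Apoa1 was first, at 4764 ± 1179 and 5546 ± 1696 CPM per kb, overlapping with Apoa2 and Apoe, and Apoa5 had dropped from rank 6 to 9 and 8. As a share of the sum over the 10 genes on this scale, Apoa1 made up 31.7% ± 2.85 in Aldafermin+MYC and 33.2% ± 2.03 in FGF19+MYC tumors, against 14.7% ± 4.69 in livers and 15.1% ± 5.97 in sgTrp53+MYC tumors (SD, n = 5 each). The share of Apom went from 0.750% ± 0.0631 in livers to 4.68% ± 1.44, 4.51% ± 1.36 and 3.22% ± 1.57 in the tumors, with every tumor above every liver. Apoc1 went from 13.1% ± 2.09 to 4.08% ± 1.49, 4.71% ± 1.07 and 8.08% (4.38% to 14.1% over the libraries). These shares are relative: a gene that fell less than the rest gains share without any rise in its level.

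The mean of both FGF tumors was set against sgTrp53+MYC tumors, where differences between drivers and between count tables cannot be told apart. Apoa1, Apob and Apom were higher in the FGF tumors, none of the 10 was lower, and of all genes tested 11.6% were higher and 12.1% lower. Apoa1 was 3.25-fold higher (log2 fold change 1.70, SE 0.31, adjusted p = 0.000709), Apob 1.85-fold and Apom 2.20-fold (log2 fold change 1.13, SE 0.25, adjusted p = 0.00366, edgeR). Apoa1 and Apob did not overlap between the groups in TMM-scaled CPM, which 3.28% of all genes did in this direction. On library totals Apob overlapped, with sgTrp53+MYC replicate 4 (988 CPM) above FGF19+MYC replicate 1 (855 CPM). For Apom the highest sgTrp53+MYC level in TMM-scaled CPM (312 CPM) lay above the lowest FGF tumor (245 CPM). Albumin moved the same way (log2 fold change 1.65, adjusted p = 0.0143), as did Afp (2.45, adjusted p = 0.00567), and the macrophage marker sum was 277 ± 129 and 368 ± 85.5 CPM in the FGF tumors against 135 ± 34.8 CPM in sgTrp53+MYC tumors (SD, n = 5 each). Of the whole lists, 2 of 11 hepatocyte markers were higher and 1 lower, 5 of 7 macrophage markers were higher and 4 of 5 biliary markers were lower in the FGF tumors. The biliary counts lay in 1 library: sgTrp53+MYC replicate 2 held a biliary marker sum of 777 CPM, the other tumors held at most 87.4 CPM, and without it 0 of the 4 markers tested were lower (adjusted p of 0.0747 or more, edgeR). Their part in the result was not tested. Without the library of each tumor group highest in hepatocyte markers the 3 genes stayed called, at 1.77 (Apoa1), 0.86 (Apob) and 1.29 (Apom). This did not level the hepatocyte markers. Their sums were still 9201 to 16569 CPM in the remaining FGF tumors and 5947 to 8948 CPM in the remaining sgTrp53+MYC tumors. The refit therefore cannot show what part they have.

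The other 7 genes did not pass the test in this comparison. Apoa2 differed by 0.38 on the log2 scale (95% confidence interval -0.061 to 0.83), Apoe by 0.41 (-0.13 to 0.95), Mttp by 0.23 (-0.11 to 0.57) and Apoa5 by 0.58 (-0.74 to 1.91). It was -0.46 for Apoc1 (-1.35 to 0.43), -0.62 for Apoa4 (-1.66 to 0.42) and -1.20 for Apoc3 (-2.59 to 0.19). Single libraries decided some of these calls. Without sgTrp53+MYC replicate 1, Apoa2 (0.59, adjusted p = 0.0491) and Apoe (0.71, adjusted p = 0.0402) were called higher. Without Aldafermin+MYC replicate 4, Apoc3 was called lower (-1.72, adjusted p = 0.0496), and without Aldafermin+MYC replicate 5, so was Apoa4 (-1.14, adjusted p = 0.0483, edgeR). Without sgTrp53+MYC replicate 1 the Apoc3 value was -0.085, and Apoa4 and Apoc1 changed sign, to 0.17 and 0.42, with an adjusted p of 0.396 or more for these 3 genes.

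**Figure D4:**
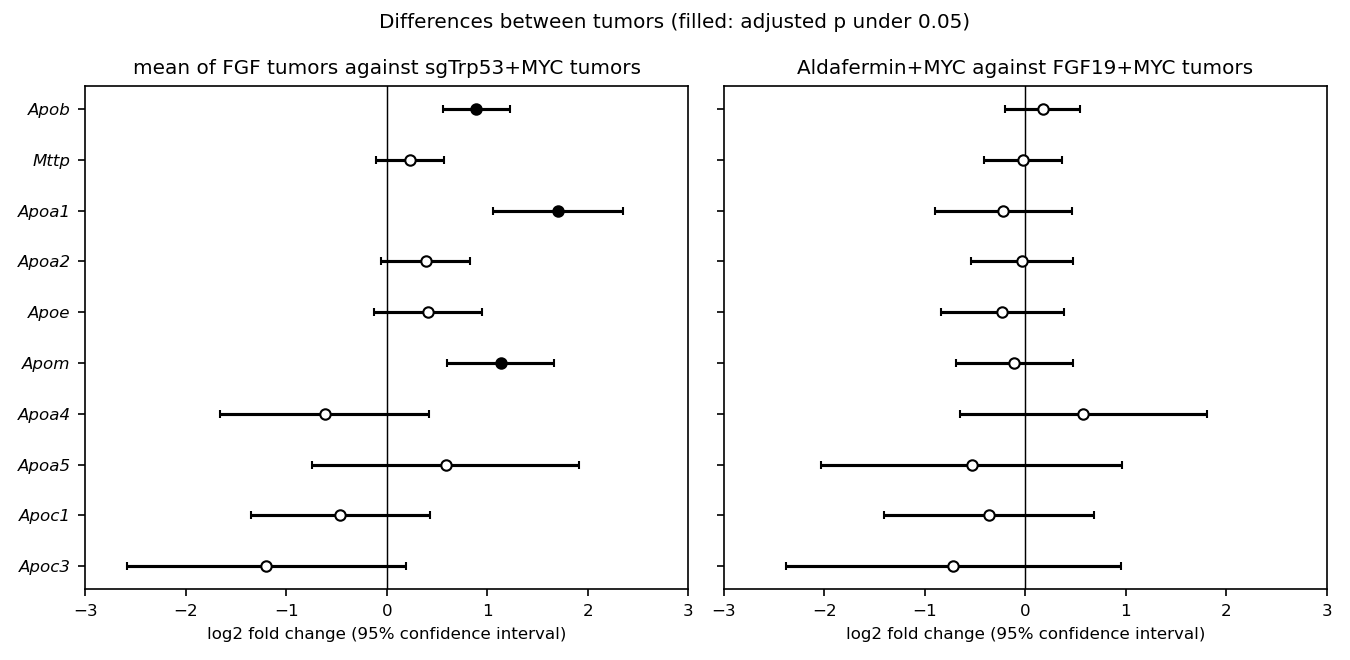
Log2 fold change of each gene between tumor groups with 95% confidence intervals from the edgeR model, for the mean of both FGF tumors against sgTrp53+MYC tumors (left) and for Aldafermin+MYC against FGF19+MYC tumors (right). Filled points passed the test, which are Apob, Apoa1 and Apom on the left, at 0.89, 1.70 and 1.13, and none on the right.

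To compare the hormone with its analog, Aldafermin+MYC tumors were set against FGF19+MYC tumors. None of the 10 genes was called by edgeR, nor were any of them at an unadjusted p under 0.05, nor by DESeq2 or edgeR's likelihood ratio test. Over all genes edgeR called 0 (0%), with 1048 (7.31%) at an unadjusted p under 0.05, whereas DESeq2 called 96 and the likelihood ratio test 59. The intervals were narrow for Mttp (log2 fold change -0.023, 95% confidence interval -0.41 to 0.37), Apob (0.17, -0.20 to 0.54) and Apoa2 (-0.034, -0.54 to 0.47). They were wide for Apoc3 (-0.72, -2.39 to 0.95), Apoa5 (-0.53, -2.03 to 0.97), Apoa4 (0.58, -0.65 to 1.81) and Apoc1 (-0.36, -1.41 to 0.68), whose intervals reach beyond a 2-fold difference. Apoa1 (-0.22), Apoe (-0.23) and Apom (-0.11) lay between. The groups overlapped for each of the 10 genes, while 1.07% of all genes lay wholly higher and 0.391% wholly lower in Aldafermin+MYC tumors.

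The remaining genes of the pathway were taken from lists of its parts. Their counts against livers stand beside 31.9%, 32.9% and 33% of all genes tested that were lower, and their medians beside 0.13, 0.062 and 0.071 over all genes, in the order Aldafermin+MYC, FGF19+MYC and sgTrp53+MYC. Of 8 other apolipoproteins 7 were tested, and 7, 6 and 7 were lower against livers, and the list's median on the log2 scale was -3.08, -2.74 and -2.86. Apoh, an apolipoprotein that binds phospholipids, fell from 3236 ± 308 CPM in livers to 383 ± 131, 485 ± 137 and 447 ± 157 CPM (SD, n = 5 each). Of 19 genes of particle assembly and secretion, 12, 14 and 16 were lower and none was higher, with a median log2 fold change of -0.81, -1.16 and -1.38. Cideb, which enlarges very low density lipoprotein, fell by 3.00, 3.28 and 3.40, and Tm6sf2, needed for its lipidation, fell by 5.01, 4.67 and 5.34 on the log2 scale.

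Against sgTrp53+MYC tumors, 6 of the 19 assembly genes were higher in the FGF tumors (Soat2, Pla2g12b, Dgat2, Surf4, Tmem41b and Dgat1) and 3 were lower (A1cf, Apobec1 and Mia2), with 11.6% of all genes tested higher and 12.1% lower. The median of the list was 0.26, beside -0.023 over all genes. Of these, Soat2 esterifies cholesterol (log2 fold change 1.61), Dgat1 and Dgat2 make triglyceride (0.48 and 0.76), and Surf4 is a cargo receptor that exports lipoproteins (0.71). Apobec1, the enzyme that edits the Apob transcript, had 14.4 ± 4.21, 12.9 ± 1.13 and 19.4 ± 3.35 CPM in the 3 tumor groups and 18.0 ± 1.92 CPM in livers (SD, n = 5 each). In the FGF tumors against sgTrp53+MYC tumors, the log2 fold change was -0.51 for Apobec1 and -0.64 for A1cf, its RNA-binding partner. Editing itself cannot be read from counts per gene.

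Of 13 genes that act on lipoproteins in plasma, 10, 10 and 11 were lower than in livers, and the list's median on the log2 scale was -3.11, -3.20 and -3.14. Lcat, the enzyme that esterifies cholesterol on high density lipoprotein, went from 910 ± 112 CPM to 82.5 ± 25.7, 76.2 ± 35.1 and 104 ± 31.9 CPM (SD, n = 5 each). Lpl, which hydrolyses the triglyceride of circulating particles, was the 1 higher gene of this list in each group, at 272 ± 108, 202 ± 28.1 and 185 ± 52.1 CPM against 33.6 ± 42.9 CPM in livers. Liver replicate 4 had 110 CPM of Lpl and the other 4 livers 14.4 ± 2.30 CPM, and without that library the log2 fold change of Lpl went from 3.02, 2.59 and 2.47 to 4.23, 3.80 and 3.68. Of 7 receptor and uptake genes reported, 6, 6 and 7 were lower than in livers, with a median of -1.60, -1.48 and -2.23. Against sgTrp53+MYC tumors 5 of these 7 were higher in the FGF tumors, Lrp1, an endocytic receptor for remnants (log2 fold change 1.31), among them, and 1, Vldlr, was lower, with 11.6% and 12.1% of all genes tested.

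Of 4 sterol efflux transporters, Abca1, Abcg5 and Abcg8 were lower than in livers in each tumor group, and Abcg1 was higher in the FGF tumors (log2 fold change 1.46 and 0.88), with a median of the list of -1.77, -2.04 and -2.27. Of 22 transcription regulators 21 were tested, and 16, 15 and 15 were lower than in livers, with a median of -1.32, -1.32 and -1.29. Srebf2, which drives cholesterol synthesis, was the 1 regulator higher in each FGF tumor group (log2 fold change 0.93 and 0.80, adjusted p = 0.000949 and 0.00308, edgeR), at 207 ± 49.8 and 190 ± 37.0 CPM against 109 ± 18.3 CPM in livers (SD, n = 5 each). Hnf4a, a nuclear receptor that drives many apolipoprotein genes, fell from 1071 ± 25.7 CPM to 470 ± 88.7, 525 ± 99.9 and 438 ± 127 CPM (SD, n = 5 each), and the FGF and sgTrp53+MYC tumors differed by 0.18 (95% confidence interval -0.18 to 0.54). In the FGF tumors against sgTrp53+MYC tumors 1 of the 21 regulators was higher and 3 were lower, with 11.6% and 12.1% of all genes tested. The higher one was Creb3l3, a fasting-induced regulator of triglyceride metabolism, at 0.68. Nr1h4, the bile acid receptor, was among the lower ones, at -0.90.

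**Figure D5:**
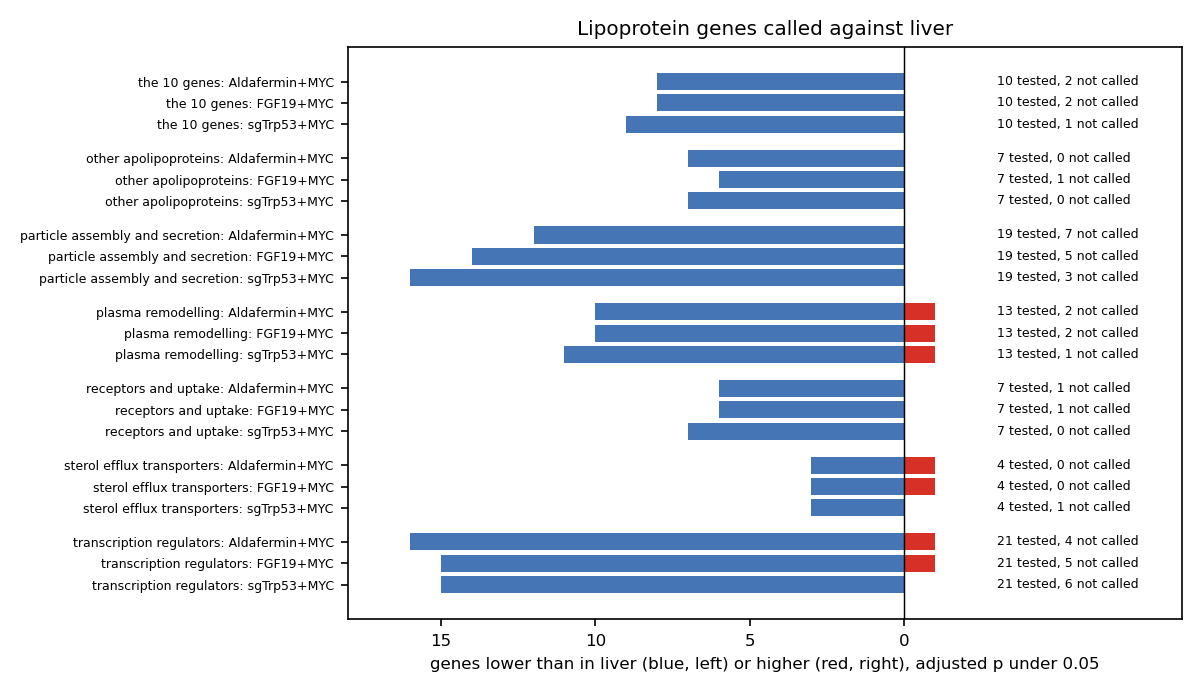
Number of genes lower (left) or higher (right) than in livers at an adjusted p under 0.05, for the 10 genes and for 6 lists of the pathway in each tumor group, with the numbers tested and not called. The 10 genes and the assembly list hold no higher gene, and Lpl is the higher gene of plasma remodelling in each tumor group.

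Outside the 10, the genes whose profiles over the 20 libraries were closest differed between members, in a search of 9378 genes whose mean was 10 CPM or more. They were Cpox and Slc37a3 for Mttp (root mean square difference 0.18 on the log2 CPM scale for both), Gjb1 and Serpina1a for Apoe (0.25 and 0.27), Cfb and Hpn for Apob (0.25 and 0.26) and Rhod and Proc for Apoa1 (0.36 and 0.42). For Apoa5 and Apoa4 the closest gene was further away, at 0.67 and 0.55. Among the 10, Apob was closest to Apoa1 (0.59) and Apoc3 to Apoc1 (0.95). These distances hold the difference between liver and tumor and are a description only.

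In GENCODE M39, exons of Apoa2 and Mttp overlap those of the antisense protein-coding genes Tomm40l (889 bases) and Trmt10a (768 bases). Antisense genes that are not protein-coding overlap exons of Apoa4 (632 and 634 bases), Apoa5 (524 bases), Apoe (521 bases) and Apob (23 bases). They also overlap Apoa2 (236 bases) and Mttp (132 bases). The kit marks strand, but whether the counting used it is not stated in the sources used here. Reads of the antisense partners may thus be counted for these genes, or shared reads left out. This may also enter the ratios within a library that use these genes, and its part was not tested.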

How the data were processed

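RNA-seq was done on 15 liver tumors and 5 livers. Per the labels and the study's methods, the authors made stranded mRNA libraries, aligned paired reads with HISAT2 to mm39 (GRCm39), counted them per RefSeq gene with htseq-count and deposited raw counts, neither normalized nor filtered, in 2 tables. The strand setting of the counting is not given in the sources used here. All sample columns were used (0 left out), and 5 summary lines were removed. Groups come from the sample titles, since the treatment label of the sgTrp53+MYC tumors reads none.

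The filter of 1 CPM or more in 5 or more libraries left 14333 genes, tested in edgeR 4.0.16 (R 4.3.3): TMM scaling, 1 quasi-likelihood model with 4 groups and Benjamini-Hochberg adjustment over all genes tested (threshold 0.05). Log2 CPM used a prior count of 2. Fold change intervals are 95% intervals of that model. The p-values cover the spread between the mice sequenced. The tests were also run on counts simulated from the fitted dispersions, with few changed genes. Those counts lack the many changes against livers and the outlying libraries of these data, so that they do not check the calls given here. No library was a copy of another (chi-square over its degrees of freedom at least 13.9 within groups). Alternatives were other scalings, filters and tests (DESeq2 1.42.0, edgeR's likelihood ratio test), offsets for GC content and exon length, only the compared groups, the replicate number as a block and leaving out libraries. Leaving out 3 libraries together, and 1 library for Lpl and for the biliary markers, was added after the data were seen. The 10 genes and the pathway and marker lists were chosen with earlier results of these data known. From each list the rule names the gene with the smallest adjusted p in each direction of a comparison, plus Alb, Hnf4a, Apobec1, Afp and Trp53. Tm6sf2, Pla2g12b, Dgat1, Dgat2, Surf4, Tmem41b, A1cf, Mia2, Lcat, Lrp1, Apoc4 and Cdx2 are not among these and were picked with their values in view. The rest of the intestinal epithelium list is given beside Cdx2. A result on 1 gene of the receptor list is not reported here, and the list is counted without it. Coordinates and coding lengths are from GENCODE M39.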

Additional observations from a re-analysis of the deposited data

Results flagged for a closer look

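Of 40 sets of 5 libraries (10 genes in 4 groups), 10 held a library whose gap to the nearest other exceeded Dixon's 95% critical value of 0.71. For normally distributed values about 2 are expected. The CPM used were not checked for that, and the 10 genes share their libraries, so that this is a description and not a test. FGF19+MYC replicate 5 stood above its group for Apoa5 (380 CPM) and Apoc3 (447 CPM), and sgTrp53+MYC replicate 1 for Apoa4 (2614 CPM), Apoa5 (260 CPM), Apoc1 (762 CPM) and Apoc3 (874 CPM). Aldafermin+MYC replicate 4 stood above its group for Apoe (5341 CPM). These are the 3 libraries with the highest hepatocyte marker sum of their groups, at 32280, 15821 and 25360 CPM, and the part of that in the levels was not tested. Aldafermin+MYC replicate 5 stood above its group for Apoa4 (2268 CPM) and Mttp (407 CPM), and FGF19+MYC replicate 1 for Apom (655 CPM). No liver was flagged.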

How the results depend on the processing

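The number of the 10 genes called against livers was 8, 8 and 9 with every library left out in turn and without the 3 libraries together. Genes called over the whole table ranged over the left-out libraries from 9461 to 10386 (Aldafermin+MYC against livers), 9437 to 10273 (FGF19+MYC) and 9473 to 10207 (sgTrp53+MYC). On library totals without TMM, 4 values that passed the test in 1 of the settings changed sign: Mttp became 0.23, 0.26 and 0.064 against livers in Aldafermin+MYC, FGF19+MYC and sgTrp53+MYC tumors, and Apom 0.61 in FGF19+MYC tumors, where the median of all genes moves by 0.84 to 0.88. Apom in Aldafermin+MYC (0.52) and Apoa4 in FGF19+MYC tumors (0.47) changed sign too. Without a filter on low counts Mttp no longer passed in the FGF tumors (-0.43 and -0.40). The cause of this was not tested.

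Between FGF tumors and sgTrp53+MYC tumors, 3 of the 10 were called, and 3 to 5 over the left-out libraries (5 without sgTrp53+MYC replicate 1), with 2497 to 3777 of all genes called. Between Aldafermin+MYC and FGF19+MYC tumors 0 of the 10 were called under each alternative run. Of all genes 0 were called, but 2 with DESeq2's size factors, 96 with DESeq2's test, 59 with the likelihood ratio test, 1 with offsets for GC content and exon length, 18 without the 3 libraries, and 0 to 29 over the left-out libraries (29 without Aldafermin+MYC replicate 4). The cause was not tested, beyond that these alternatives use other variance estimates, offsets or fewer samples.

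Replicate numbers did not pair the samples: over 30 pairs of groups and numbers the deviations correlated at -0.33 to 0.33, and 1 of 20 libraries was closest to its own number. With the replicate block, 0, 3120, 10036, 9942 and 9981 genes were called in the 5 comparisons and 0, 3, 8, 8 and 9 of the 10. Over all fold changes of the 10 genes and settings, 7 gained and 3 lost a call with their sign kept. Of 1550 values 28 had the opposite sign, 4 of them called in either setting. These 4, all on library totals against livers, changed their call too. Mttp lost its call in each tumor group, and Apom gained one in FGF19+MYC tumors. With 5 tumors a group, the intervals between FGF tumors reach beyond 2-fold for Apoa4, Apoa5, Apoc1 and Apoc3.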

Other observations

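Cdx2, a transcription factor of the intestinal epithelium, was counted in a single library, sgTrp53+MYC replicate 2, with 1217 reads (17.0 CPM) and 0 reads in the other 19. That library had 797 CPM of Apoa4, an apolipoprotein that the intestine also makes, and was not the highest of its group. The rest of the intestinal epithelium list went both ways. Sis had 0 reads in every group, and Cdx1 had at most 24 reads in an sgTrp53+MYC library. Fabp2 was lower in sgTrp53+MYC tumors (6.51 ± 7.44 CPM) than in livers (75.9 ± 8.54 CPM). Vil1 was higher there (13.6 ± 10.1 CPM) than in livers (0.939 ± 0.494 CPM, SD, n = 5 each).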
